A study of Homo sapiens with 4 samples.

Results

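Cohesin and condensin are represented here by 10 genes, 5 for each complex, out of 18567 genes in the deposited table. The cohesin genes were SMC1A, SMC3, RAD21, STAG1 and STAG2, and the condensin genes were SMC2, SMC4, NCAPD2, NCAPG and NCAPH. They were chosen by name as core subunits, and each matched 1 row of the table through its Ensembl gene ID. RNA came from Kasumi-1, an established human acute myeloid leukemia line, with 2 samples labelled NC and 2 labelled sh-ANP32B, in which a short hairpin RNA lowered ANP32B, a histone-binding nuclear protein. The labels call the NC samples untreated, with no hairpin, while the methods of the study name a control hairpin (sh-NC) and puromycin selection, so infection and selection cannot be told apart from the loss of ANP32B if NC carried none. Which of the study's hairpins each sh-ANP32B sample carried is not given in the sources used here, nor whether the samples of a group were separate cultures, so p-values measure only the spread between these samples.

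Both complexes are rings built on a pair of SMC ATPases, long coiled-coil proteins that join at a hinge and at their ATP-binding heads. In cohesin the pair is SMC1A and SMC3, RAD21 is the kleisin that closes the ring, and STAG1 or STAG2 sits on the kleisin. Cohesin holds sister chromatids together from S phase to anaphase and folds interphase chromatin into loops throughout the cycle, and its genes, STAG2 above all, are recurrently mutated in myeloid leukemia. In condensin I the pair is SMC2 and SMC4, NCAPH is the kleisin, and NCAPD2 and NCAPG are HEAT-repeat subunits. Condensin compacts chromosomes in mitosis and is needed mainly by dividing cells, and condensin II shares SMC2 and SMC4 but carries NCAPH2, NCAPD3 and NCAPG2 in place of the other subunits.

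Levels are given in TPM, a unit scaled by transcript length and by the total of each sample, so that genes can be compared with each other. The depth of the samples is unknown. Differences are sh-ANP32B minus NC on the log2(TPM + 1) scale, from a limma fit over the 16817 genes that reached 1 TPM in 2 or more samples, and a gene was called changed at an adjusted p under 0.05. All 10 subunits passed that filter. ANP32B itself had 383.8 and 392.0 TPM in NC against 51.8 and 41.2 TPM in sh-ANP32B, as the labels state. Of the 7 genes listed to identify Kasumi-1, SPI1 and CD33 were well expressed (58.5 to 363.6 TPM), RUNX1T1, a partner in the fusion of this line, had 15.6 to 31.2 TPM, CD38 had 4.155 to 8.26 TPM, and KIT was low, at 1.55 to 3.41 TPM. CD34 and MPO were not analysed here. Of the listed markers of other cell types, CD2 and CD79A lay between 0 and 9.485 TPM, of which CD2 was higher in sh-ANP32B (1.65 and 1.57 against 9.485 and 9.25 TPM, limma adjusted p = 0.0261), and the others are not reported here. The part of CD2 in the results was not tested. Over all genes 199 were called lower (1.18%) and 360 higher (2.14%), 3.32% in all, and the median log2 difference was 0.08. The higher share of the calls, 64.4%, was 44.4% after median-of-ratios scaling, 51.0% after quantile normalization, 51.5% after upper-quartile scaling and 47.5% after correction for GC content.

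The condensin genes were lower in both sh-ANP32B samples than in both NC samples, for all 5 subunits. Groups separated in this direction in 21.4% of all genes tested. NCAPD2 passed the test over all genes, whereas NCAPH, NCAPG, SMC4 and SMC2 did not. The 1 called gene among 5 stands against 1.18% of all genes called lower. All 5 had an unadjusted p under 0.05, as had 8.72% of all genes in this direction. In these bulk samples fewer dividing cells and less RNA per cell cannot be told apart. The median log2 difference of the 5 genes was -0.66, against 0.08 over all genes, and all 10 subunits had a difference below 0, as had 42.1% of all genes.

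NCAPD2, a HEAT-repeat subunit that helps condensin I bind chromatin (ENSG00000010292, chr12:6493356-6531955, plus strand, hg38), had 242.1 and 240.3 TPM in NC against 153.1 and 151.7 TPM in sh-ANP32B. The replicates lay closer together than for any other subunit, and the groups were far apart, with means of 241.2 ± 1.33 and 152.4 ± 0.999 TPM (SD, n = 2 each). NCAPD2 fell to 63.2% of NC, a log2 difference of -0.66 (SE 0.118, limma adjusted p = 0.044). The call is close to the threshold: without NC replicate 1 or NC replicate 2 the limma adjusted p was 0.378 or 0.389, at a log2 difference of -0.65 or -0.66, and without the abundance trend it was 0.134.

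NCAPH, the kleisin that bridges the SMC heads (ENSG00000121152, chr2:96335766-96377091, plus strand), had 78.1 and 74.6 TPM in NC against 51.8 and 37.7 TPM in sh-ANP32B. NCAPG, the other HEAT-repeat subunit (ENSG00000109805, chr4:17810979-17844865, plus strand), had 69.0 and 73.1 TPM in NC against 49.0 and 35.8 TPM in sh-ANP32B. These genes showed the most negative log2 differences of the 10, -0.77 (SE 0.181, limma adjusted p = 0.0692) for NCAPH and -0.75 (SE 0.182, limma adjusted p = 0.0739) for NCAPG. Their sh-ANP32B replicates were apart by 0.45 and 0.44 on the log2 scale, with replicate 1 the higher, and neither passed over all genes.

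SMC4 (ENSG00000113810, chr3:160399274-160434954, plus strand) is the more abundant of the condensin ATPases, with 217.3 and 246.8 TPM in NC against 169.9 and 134.2 TPM in sh-ANP32B. Its partner SMC2 (ENSG00000136824, chr9:104094260-104141419, plus strand) had 61.7 and 65.7 TPM in NC against 54.8 and 37.9 TPM in sh-ANP32B. The log2 difference was -0.61 for SMC4 (SE 0.158, limma adjusted p = 0.0826) and -0.47 for SMC2 (SE 0.197, limma adjusted p = 0.208). SMC2 had the widest gap between sh-ANP32B replicates of the 10 genes (0.52 log2), and the 95% interval of its difference, -0.94 to -0.0028, nearly reached 0. Without sh-ANP32B replicate 2 the SMC2 difference was -0.21, and without sh-ANP32B replicate 1 it was -0.73.

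**Figure D1:**
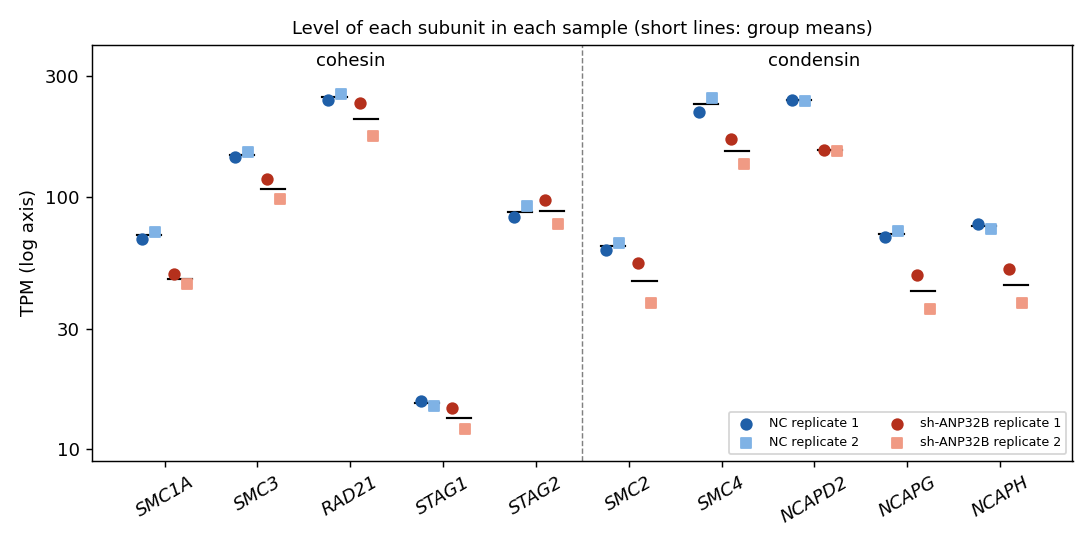
Level of each of the 10 subunits in each of the 4 samples, in TPM on a log axis, with NC in blue, sh-ANP32B in red, and short lines at the group means. NCAPD2 shows 153.1 and 151.7 TPM in sh-ANP32B against 242.1 and 240.3 TPM in NC, whereas the STAG2 samples of both groups interleave between 77.7 and 97.2 TPM.

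Because the condensin genes lay lower together, the sequence before their start sites is shown, from 155 bases before the RefSeq start to 5 after it. Of the 10 members 9 had entries in the promoter table used here (GRCh38.p14), with 14 windows of 300 bases, and RAD21 had none. Capitals mark a CHR (cell cycle genes homology region, TTTGAA or TTCGAA on either strand) or a CCAAT box (CCAAT on either strand). The CHR is known from promoters of genes expressed in G2 and mitosis, and the CCAAT box is bound by NF-Y. NCAPD2, NCAPG and NCAPH lie on the plus strand at chr12:6493947-6494106, chr4:17810824-17810983 and chr2:96335611-96335770, and SMC3, at chr10:110567540-110567699 on the plus strand, is added as the cohesin gene with a CHR. The SMC4 stretch lies wholly within the annotated gene span and the SMC2 stretch runs past the annotated gene start, and neither is printed. The printed NCAPG, NCAPH and SMC3 stretches pass their annotated gene starts only near the end. The NCAPD2 stretch is printed although it lies wholly within the annotated gene span, which begins at chr12:6493356. Its marks therefore precede the RefSeq start used here but not the annotated start of the gene.
NCAPD2: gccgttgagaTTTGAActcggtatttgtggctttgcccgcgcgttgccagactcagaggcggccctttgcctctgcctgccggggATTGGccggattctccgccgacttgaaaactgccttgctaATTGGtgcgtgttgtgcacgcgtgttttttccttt
NCAPG: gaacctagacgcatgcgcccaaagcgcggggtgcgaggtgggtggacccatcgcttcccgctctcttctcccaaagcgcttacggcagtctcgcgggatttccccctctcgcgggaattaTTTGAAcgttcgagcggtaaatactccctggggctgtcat
NCAPH: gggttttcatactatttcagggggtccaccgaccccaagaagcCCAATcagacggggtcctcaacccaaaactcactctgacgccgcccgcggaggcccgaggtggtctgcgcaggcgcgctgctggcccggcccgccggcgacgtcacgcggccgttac
SMC3: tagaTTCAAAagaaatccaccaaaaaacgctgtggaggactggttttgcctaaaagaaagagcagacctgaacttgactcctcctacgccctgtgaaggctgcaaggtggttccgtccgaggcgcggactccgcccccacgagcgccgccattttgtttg
Counted from the start site at 0, the first base of the CHR lies at -35 in NCAPG, -75 in SMC4, -145 in NCAPD2, -3 in SMC2 and -151 in SMC3. As in NCAPD2, the CHRs of SMC4 and SMC2 lie past the annotated gene start (chr3:160399274 and chr9:104094260). Those of NCAPG and SMC3 precede it, so the counts below depend on the RefSeq starts used. In the 300-base windows a CHR was found for 4 of the 5 condensin genes, in 4 of their 7 windows, and for 1 of the 4 cohesin genes, in 1 of 7 windows. By comparison, 16.4% of all 35116 windows held one. CCAAT boxes were found in 2 condensin genes, NCAPD2 with 4 and NCAPH with 1, and in 2 cohesin genes. By window these were 2 of 7 for condensin and 3 of 7 for cohesin, against 34.6% of all windows. An E2F word (TTTCCCGC, TTTCGCGC, TTTGCCGC or TTTGGCGC on either strand) was found for 0 condensin genes and 3 cohesin genes (SMC1A, STAG1 and STAG2). By window these were 0 of 7 for condensin and 3 of 7 for cohesin, against 3.31% of all windows. The E-box CACGTG was found in no window of the 9 genes, against 7.26% of all windows. A match shows only that these letters are present in the window.

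Among the cohesin genes, none of the 5 passed the limma test over all genes, in which only 1.18% of all genes were called lower. At an unadjusted p under 0.05 there were 2, SMC1A and SMC3. The groups did not overlap in 4 of the 5, all with sh-ANP32B lower, where 21.4% of all genes separated in this direction and 8.72% had an unadjusted p under 0.05. The median log2 difference was -0.30, against 0.08 over all genes. The differences ran from -0.56 for SMC1A to -0.0034 for STAG2.

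SMC1A (ENSG00000072501, chrX:53374149-53422728, minus strand), an ATPase of the ring, had 67.8 and 72.5 TPM in NC against 49.5 and 45.1 TPM in sh-ANP32B, the largest cohesin difference at -0.56 (SE 0.14, limma adjusted p = 0.0771). SMC3 (ENSG00000108055, chr10:110567684-110606048, plus strand), its partner, had 143.5 and 149.8 TPM in NC against 117.2 and 97.4 TPM in sh-ANP32B, a difference of -0.45 (SE 0.143, limma adjusted p = 0.124). For both ATPases the groups were apart by more than the replicates within either group.

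RAD21 (ENSG00000164754, chr8:116845934-116874776, minus strand), the kleisin that separase cuts at anaphase, had the highest mean of the 10 genes in both groups, with 240.8 and 254.6 TPM in NC against 233.9 and 173.5 TPM in sh-ANP32B. One sh-ANP32B sample lay just under the NC values and the other well below them, and the difference was -0.30 (SE 0.167, limma adjusted p = 0.337). Without sh-ANP32B replicate 2 it was -0.08 and without sh-ANP32B replicate 1 it was -0.51.

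The STAG subunits, which set where cohesin sits, showed the smallest differences of the 10. STAG2 (ENSG00000101972, chrX:123960212-124422664, plus strand) had 82.8 and 91.6 TPM in NC against 97.2 and 77.7 TPM in sh-ANP32B, so that the groups overlapped. Its difference was -0.0034 (SE 0.158, limma adjusted p = 0.994), with a 95% interval from -0.38 to 0.37. STAG1 (ENSG00000118007, chr3:136336236-136752403, minus strand) was the least abundant subunit, with 15.6 and 14.8 TPM in NC against 14.6 and 12.01 TPM in sh-ANP32B, a difference of -0.18 (limma adjusted p = 0.604) with an interval from -0.63 to 0.26. The STAG1 difference was -0.06 without sh-ANP32B replicate 2 and -0.31 without sh-ANP32B replicate 1. By level in NC, RAD21, NCAPD2 and SMC4 overlapped at the top (217.3 to 254.6 TPM), SMC3 followed at 143.5 and 149.8 TPM, STAG2, NCAPH, NCAPG, SMC1A and SMC2 formed a run of near neighbours (61.7 to 91.6 TPM), and STAG1 stood alone at the bottom. STAG1 made up 15.8% and 13.9% of the STAG1 and STAG2 TPM in NC and 13.0% and 13.4% in sh-ANP32B.

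**Figure D2:**
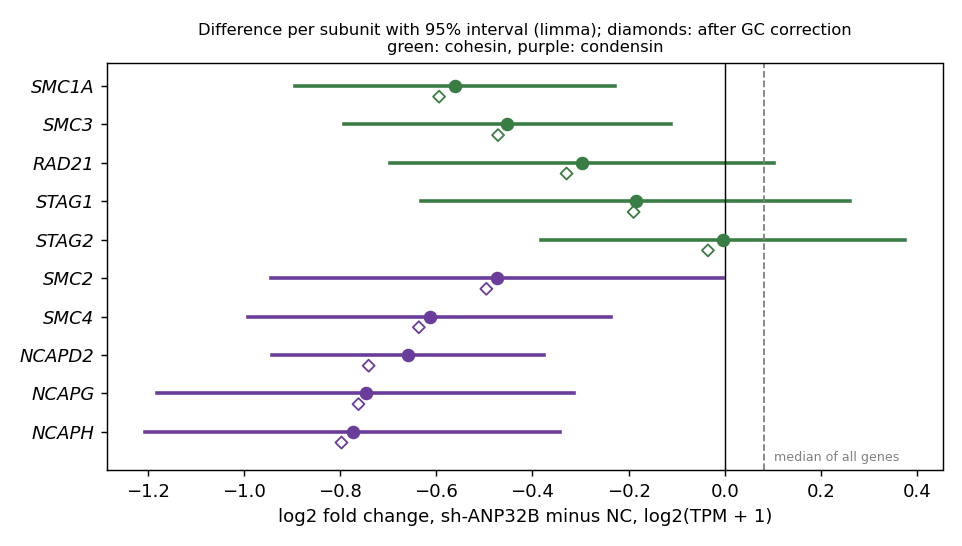
Log2 difference of each subunit, sh-ANP32B minus NC, as a filled point with its 95% limma interval, and after GC correction as an open diamond, with cohesin in green, condensin in purple and the median of all genes (0.08) as a dashed line. The condensin points run from -0.77 to -0.47 and the cohesin points from -0.56 to -0.0034.

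Setting the complexes side by side, the condensin difference was the more negative in 24 of the 25 pairs of a condensin and a cohesin gene. The exception paired SMC2 with SMC1A. The mean log2(TPM + 1) of the condensin genes exceeded that of the cohesin genes by 0.49 in both NC samples, but by only 0.17 and 0.10 in sh-ANP32B replicates 1 and 2. The gap narrowed by 0.35 log2 units, while its SD between replicates was 0.0042 in NC and 0.0514 in sh-ANP32B. As both means come from the same sample, a scaling factor nearly cancels in the gap, which narrowed by 0.32 to 0.39 when any 1 sample was left out. In summed TPM, condensin stood at 1.214 and 1.201 times cohesin in NC and at 0.934 and 0.979 times in sh-ANP32B. No p is given for these values, since genes are not replicates and the smallest p that an exact permutation test allows with 2 samples a group is 0.33.

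**Figure D3:**
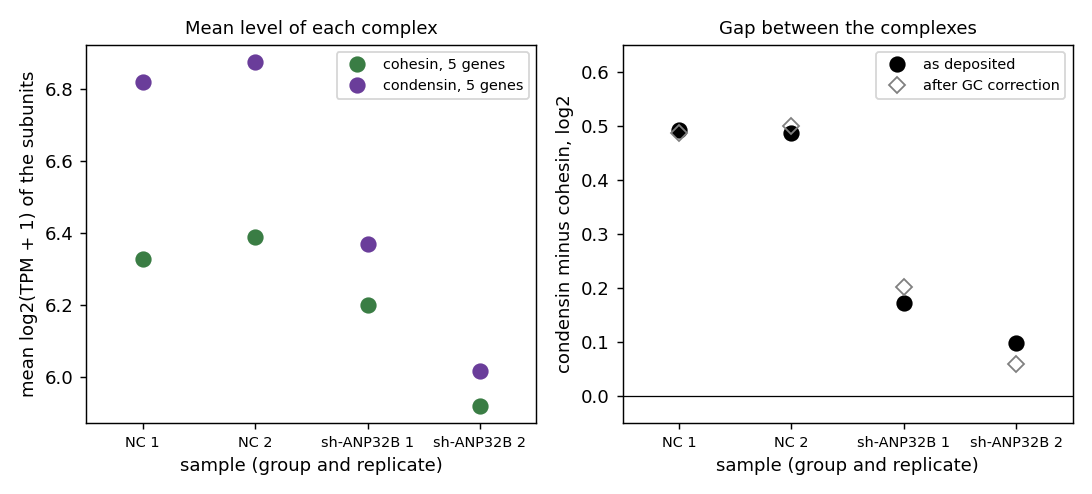
Mean log2(TPM + 1) of the 5 cohesin and the 5 condensin genes in each sample (left, axis not starting at 0), and condensin minus cohesin in each sample (right), as deposited and after GC correction. The gap is 0.49 in both NC samples and 0.17 and 0.10 in the sh-ANP32B samples.

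Ratios within a sample place single subunits of the complexes beside each other. Of the 25 ratios of a condensin to a cohesin gene, 20 were lower in both sh-ANP32B samples than in both NC samples and 5 overlapped, a description over genes that share samples. The share of all gene pairs whose ratios separate was not computed, so this count has no background beside it. The 5 that overlapped were the ratios of SMC2, SMC4, NCAPD2 and NCAPH to SMC1A, and of SMC2 to SMC3. The NCAPH to RAD21 ratio, of kleisin to kleisin, was 0.324 and 0.293 in NC and 0.221 and 0.218 in sh-ANP32B. NCAPD2 stood at 2.92 and 2.62 times STAG2 in NC and at 1.58 and 1.95 times in sh-ANP32B. Between the ATPases, SMC4 was 1.51 and 1.65 times SMC3 in NC and 1.45 and 1.38 times in sh-ANP32B, with no overlap. SMC2 was 0.430 and 0.439 times SMC3 in NC and 0.467 and 0.388 times in sh-ANP32B, which overlap. SMC4 was 3.20 and 3.40 times SMC1A in NC and 3.44 and 2.98 times in sh-ANP32B, which overlap as well.

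Inside condensin 7 of the 10 ratios overlapped between the groups. NCAPG was 0.884 and 0.979 times NCAPH in NC and 0.947 and 0.948 times in sh-ANP32B, and SMC4 was 3.52 and 3.75 times SMC2 in NC and 3.10 and 3.55 times in sh-ANP32B. NCAPD2 was 3.10 and 3.22 times NCAPH in NC and 2.96 and 4.02 times in sh-ANP32B. The 3 that did not overlap set an ATPase against NCAPG or NCAPH: SMC2 was 0.894 and 0.899 times NCAPG in NC and 1.12 and 1.06 times in sh-ANP32B, and the ratios of SMC2 to NCAPH and of SMC4 to NCAPG were likewise higher in both sh-ANP32B samples. Inside cohesin 9 of the 10 ratios did not overlap, the exception being RAD21 to STAG1. These 10 ratios come from only 5 genes. With 2 samples a group many values separate: of 16817 single genes, 3601 separated lower and 5579 higher. As the share over all gene pairs was not computed, no conclusion is drawn on the balance within either complex. The ratios of RAD21 to SMC1A and of STAG2 to STAG1 were higher in both sh-ANP32B samples. RAD21 was 3.55 and 3.51 times SMC1A in NC and 4.73 and 3.85 times in sh-ANP32B, and STAG2 was 5.32 and 6.19 times STAG1 in NC and 6.68 and 6.47 times in sh-ANP32B.

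The sh-ANP32B replicates differed with GC content, and most subunits have AT-rich transcripts. Across 15427 genes the difference between these replicates had a Spearman rho of 0.577 with the GC content of the longest transcript, a description of the libraries in which genes share sample and base composition. Among the 2660 genes at up to 40% GC replicate 2 lay below replicate 1 by a median of -0.34 log2, and 6 of the 10 subunits lie there, RAD21, STAG2, SMC4, SMC2, SMC3 and NCAPG (36.01% to 38.7%). The median sh-ANP32B minus NC difference of those 2660 genes was 0.03. NCAPD2, at 51.6% GC, was the least split between replicates (-0.01 log2), and NCAPH, at 46.1%, was split by -0.45 where genes of 45 to 50% GC had a median of -0.08.

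After the GC trend was taken out of each sample, all 5 condensin genes passed the limma test over all genes, with adjusted p from 0.00828 to 0.0296, and their median difference was -0.74. Among the cohesin genes SMC1A (limma adjusted p = 0.013), SMC3 (0.0161) and RAD21 (0.0403) passed as well, while STAG1 (0.371) and STAG2 (0.792) did not. In that fit 7.33% of all genes were called lower. With the replicate number as a block, 4 condensin genes and 0 cohesin genes passed (NCAPD2, NCAPG, NCAPH and SMC4, limma adjusted p from 0.0136 to 0.0443), against 2.92% of all genes, while 2 cohesin genes had an unadjusted p under 0.05. Block and GC correction together gave 4 condensin and 2 cohesin genes against 4.76%, a block with the replicate numbers crossed gave 4 and 1 against 4.31%, and the criterion of the study, an unadjusted p under 0.05 with a log2 difference beyond 0.5, gave 4 and 1 against 6.55%. The gap between the complexes narrowed by 0.36 after GC correction. It was then 0.20 and 0.06 in sh-ANP32B replicates 1 and 2, with an SD of 0.101, against 0.0514 without the correction.

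**Figure D4:**
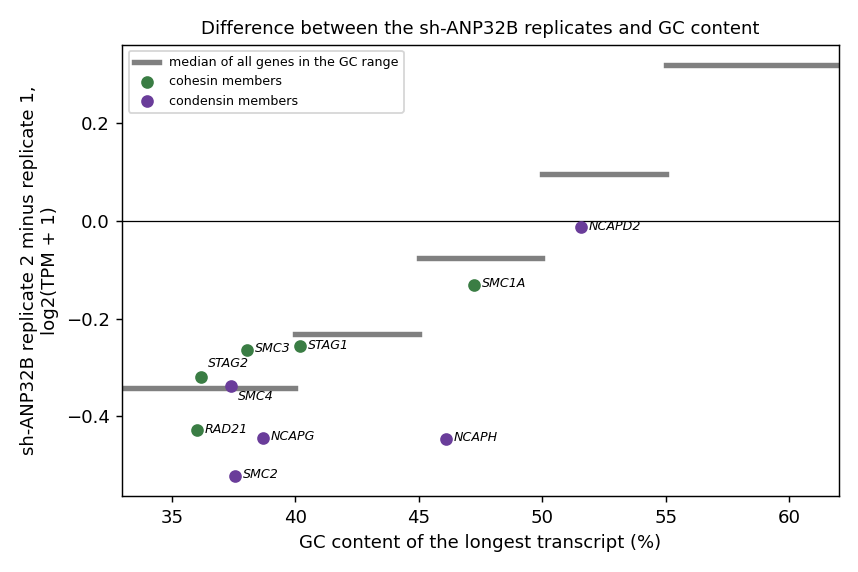
GC content of the longest transcript (percent) against the difference between the sh-ANP32B replicates (replicate 2 minus replicate 1, log2(TPM + 1)) for the 10 subunits, with the median of all genes in each GC range as grey bars. The subunits up to 40% GC lie between -0.52 and -0.26, around the grey bar at -0.34, and NCAPH, at -0.45, lies below the bar for its range (-0.08).

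Some of these values may hold reads of other genes, because exons on the opposite strand overlap and whether counting used strand is not given in the sources used here. Of the 7843 exonic bases of STAG1, 1661 overlap PCCB, which had 62.1 and 61.5 TPM in NC against 43.25 and 31.1 TPM in sh-ANP32B. SMC4 shares 1553 of 8164 exonic bases with TRIM59, at 64.9 to 77.5 TPM, and NCAPG 1634 of 4847 with LCORL, at 16.9 to 24.4 TPM. NCAPD2 shares 383 of 6470 with MRPL51, at 36.4 to 59.2 TPM, and RAD21 576 of 14382 with UTP23, at 13.6 to 20.0 TPM. SMC4 also shares 243 with IFT80, at 29.0 to 41.9 TPM.

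The condensin II subunits were compared next, in a list with MCPH1, which restrains condensin II. All 4 genes had a negative difference, with a median of -0.43, and 1 was called, against 42.1% of all genes negative and 1.18% called lower. NCAPG2 (190.1 and 199.4 TPM in NC against 119.6 and 90.4 TPM in sh-ANP32B) fell by 0.90 on the log2 scale (SE 0.164, limma adjusted p = 0.0444). Its call was lost without NC replicate 1 (0.11) or NC replicate 2 (0.166). The other subunits, picked out after their values were seen, were NCAPD3, at 112.0 and 113.7 TPM in NC against 78.4 and 77.7 TPM in sh-ANP32B (limma adjusted p = 0.0714), and NCAPH2, at 79.4 and 70.4 against 53.0 and 66.4 TPM (limma adjusted p = 0.278). The NCAPH2 to NCAPH ratio, 1.02 and 0.943 in NC, was 1.02 and 1.76 in sh-ANP32B. After GC correction NCAPD3, NCAPG2 and NCAPH2 passed (limma adjusted p from 0.00787 to 0.0166), in a fit where 7.33% of all genes were called lower.

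Of 13 genes that load, release, modify, protect, halt or cut cohesin, 10 had a negative difference (42.1% of all genes), the median was -0.19, and 1 was called (1.18% of all genes lower). ESPL1, the separase that cuts RAD21, had 73.1 and 74.4 TPM in NC against 40.8 and 46.8 TPM in sh-ANP32B and fell by 0.74 on the log2 scale (SE 0.143, limma adjusted p = 0.0482). That call was lost without NC replicate 1 (0.297), without NC replicate 2 (0.349) and with a pseudocount of 0.1 (0.0526). ESCO2, which acetylates SMC3 in S phase, had the largest difference of the list, -0.85, with 31.1 and 33.8 TPM in NC against 19.6 and 15.8 TPM in sh-ANP32B (limma adjusted p = 0.0558). The values of 3 further genes with cell cycle roles, chosen after they were seen, were -0.72 for SGO1, which protects centromeric cohesin, -0.59 for CDCA5, which stabilizes cohesin on replicated DNA, and -0.48 for PTTG1, the inhibitor of separase, with limma adjusted p of 0.0624, 0.0819 and 0.0944. Likewise chosen, the loader gave 0.10 for NIPBL and 0.49 for MAU2, the release factor WAPL -0.19 and the acetyltransferase ESCO1 0.13, with limma adjusted p from 0.129 to 0.802. CTCF, which stops cohesin at loop anchors, gave -0.16 (limma adjusted p = 0.534). The remaining genes of the list were PDS5B at -0.47, PDS5A at -0.12 and HDAC8 at -0.05 (limma adjusted p of 0.172, 0.696 and 0.92). PDS5B, close to PTTG1 in size, was lower in both sh-ANP32B samples than in both NC samples. After GC correction 6 genes of this list were called lower, against 7.33% of all genes, and with the block 3, against 2.92%.

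Of the 4 other cohesin subunits, known mainly from meiosis, 3 were tested, and RAD21L1 was not analysed here. REC8, a meiotic kleisin, had 9.01 and 5.39 TPM in NC against 17.9 and 18.7 TPM in sh-ANP32B, a difference of 1.27 (SE 0.254) that missed the threshold (limma adjusted p = 0.0511). Its limma adjusted p was 0.037 after GC correction, where 6.62% of all genes were called higher, and 0.000428 with the block, where 5.84% were. The block leaves 1 residual degree of freedom, and replicate numbers were not taken to pair the samples. The limma adjusted p was 0.0602 after median-of-ratios scaling and 0.121 without the abundance trend. NC replicate 2 minus replicate 1 was -0.65 log2 for REC8. Its difference was 0.95 without NC replicate 2 and 1.60 without NC replicate 1. SMC1B, the meiotic form of SMC1A, chosen after its values were seen, had 28.3 and 31.6 TPM in NC against 18.03 and 13.0 TPM in sh-ANP32B, a difference of -0.92 (SE 0.203, limma adjusted p = 0.0607). STAG3 was at 2.11 to 2.76 TPM in all samples.

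The third SMC complex, SMC5/6, which acts in DNA repair, showed 0 called genes of the 6 tested, with a median of -0.08. Over all genes only 1.18% were called lower, so 0 of 6 does not set this complex apart. One gene was lower at an unadjusted p under 0.05, as were 8.72% of all genes, and 5 of the 6 had a negative difference (42.1% of all genes). NSMCE4A gave the largest difference, -0.58 (limma adjusted p = 0.105), and the other 5 lay between -0.31 and 0.03. EID3 was not analysed here.

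The 9 genes listed as mitotic chromosome partners of condensin all had a negative difference and groups that did not overlap, with a median of -0.67, and 2 were called. The list was fixed by name and also holds TOP2B (-0.45, limma adjusted p = 0.232), whose place on mitotic chromosomes was not tested. Over all genes 42.1% had a negative difference, 21.4% separated in this direction and 1.18% were called lower. MKI67, the coat protein that keeps chromosomes apart, had 144.4 and 150.7 TPM in NC against 84.03 and 74.0 TPM in sh-ANP32B and fell by 0.90 on the log2 scale (SE 0.134, limma adjusted p = 0.0354). KIF4A, a chromosome-bound kinesin that binds condensin, had 60.1 and 58.3 TPM in NC against 36.5 and 34.8 TPM in sh-ANP32B and fell by 0.72 (SE 0.139, limma adjusted p = 0.0482). Both calls were lost without NC replicate 1 (0.116 and 0.378) or NC replicate 2 (0.172 and 0.349), and KIF4A also with a pseudocount of 0.1 (0.0524). The other 7, among them CDK1, AURKB and TOP2A, lay between -0.72 and -0.37 (limma adjusted p from 0.0544 to 0.232). After GC correction all 9 passed, with the share of all genes called lower then at 7.33%, and with the block 6 passed, where 2.92% of all genes were called lower.

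**Figure D5:**
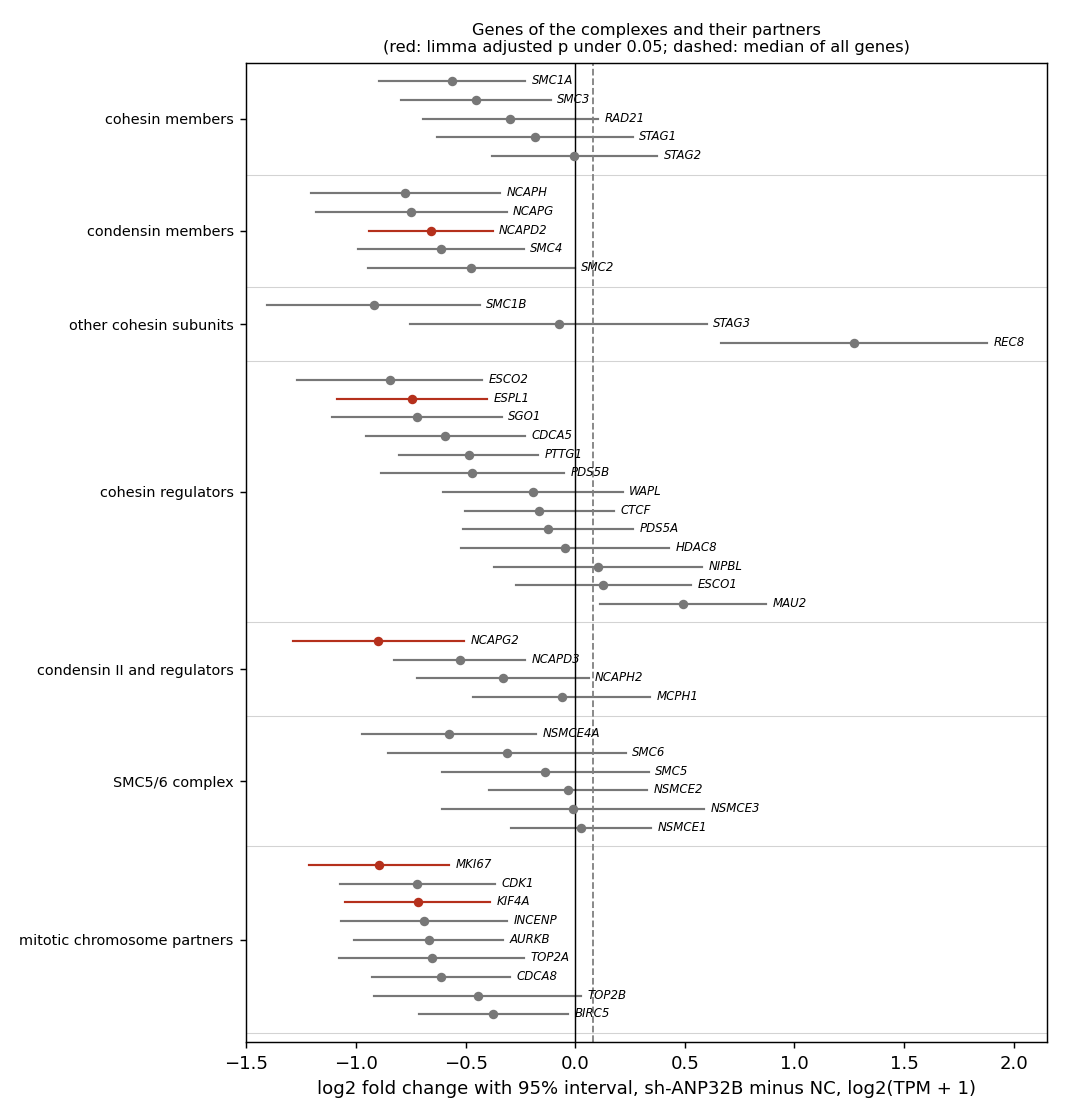
Log2 difference with its 95% limma interval for every tested gene of the 7 lists, sh-ANP32B minus NC, in red where the adjusted p over all genes was under 0.05, with the median of all genes as a dashed line. The mitotic chromosome partners (median -0.67) and the condensin genes (-0.66) lie to the left, while the SMC5/6 genes (-0.08) lie around 0.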

How the data were processed

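RNA-seq of 4 Kasumi-1 samples was analysed, 2 NC and 2 sh-ANP32B, grouped by their titles. The authors aligned reads to hg38 with HISAT2 v2.0.5 and deposited TPM values, whose columns sum to 997812 to 998314. The unit was identified from the values, and the program behind it, its annotation and filters are not given in the sources used here. TPM keeps no depth, so no counting interval could be computed. Of 18567 gene IDs, 16986 were found in GENCODE v44. No value above 0 was identical between replicates.

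Values were taken as log2(TPM + 1), kept at 1 TPM or more in at least 2 samples, and compared by limma 3.58.1 with an abundance trend (R 4.3.3, 2 residual degrees of freedom), two-sided, with Benjamini-Hochberg adjustment over all genes tested. DESeq2, which the study used, needs counts and was not run. The loess correction (span 0.3) used the GC content of the longest transcript. The members and lists were chosen with earlier results of these data known. All 10 members are named, and in other lists at least the called genes and the one with the largest difference. The test was run on simulated data first. Alternatives were other scalings, filters, pseudocount, variance model, GC correction, replicate blocks and leaving out each replicate. Python 3.11.15, pandas 2.3.3 and matplotlib 3.10.9 were used.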

Additional observations from a re-analysis of the deposited data

How the results depend on the processing

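Of all 16817 genes 559 were called in the fit above, whereas GC correction gave 2346, the replicate block 1473, the replicate block with GC correction 1456, the crossed block (chosen after seeing the data) 1995, the criterion of the study 3130 and limma without the abundance trend 0, where 3701 had an unadjusted p under 0.05. In the same order, the called condensin genes, 1 as reported, numbered 5, 4, 4, 4, 4 and 0 (4 at an unadjusted p under 0.05), and the called cohesin genes, 0 as reported, numbered 3, 0 (2 at an unadjusted p under 0.05), 2, 1, 1 and 0 (1 at an unadjusted p under 0.05). Leaving out 1 replicate, which leaves a lone sample assumed to vary like the others and 1 residual degree of freedom, gave 273 to 4079 genes, 0 to 5 condensin genes and 0 to 3 cohesin genes. The counts of 0, without NC replicate 1 or NC replicate 2 (4 and 3 condensin and 0 and 0 cohesin genes at an unadjusted p under 0.05 in limma), rest on fewer samples and a spread set by the sh-ANP32B samples alone. The higher counts, without sh-ANP32B replicate 1 or 2, rest on as few samples and a spread set by the NC samples alone. Over all genes the NC samples were the closer pair (SD 0.273, against 0.356 within sh-ANP32B). The cohesin median ranged from -0.511 to -0.082 over the replicates left out. The difference of STAG2 changed sign without NC replicate 2 (0.07) and without sh-ANP32B replicate 2 (0.16), and ranged from -0.16 to 0.16 over the replicates left out. Over the replicates left out the condensin median ranged from -0.78 to -0.53 and the difference in the gap between the complexes from -0.39 to -0.32. For the remaining shifts the cause was not tested. Deviations from the group means were not shared by samples of equal number (across genes, Pearson r -0.0925 and Spearman rho -0.168), so the replicate numbers were not taken to pair them. The unknown depth limits what can be said of low genes such as STAG3.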
